A study of Homo sapiens with 8 samples.

Results

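The cytosolic ribosome of HCT-116, an established human line of colorectal cancer, was followed through the mRNAs of its protein components. A gene was a member when its symbol was RPL or RPS followed by a number, with or without a final A or X, or when it was *RPLP0*, *RPLP1*, *RPLP2* or *RPSA*. This gave 77 of the 20030 rows of each library, 46 genes of the large (60S) subunit and 31 of the small (40S) subunit. The rule uses gene names and no measured values, and all 77 passed the filter on low values, which required at least 1 FPKM (fragments scaled by gene length and by the library's total) in at least 2 libraries.

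The study knocked down partners of a transcription complex and sequenced the RNA. There were 2 libraries with a control siRNA (siNC), 3 with knockdown of *HHEX*, a homeobox transcription factor (siHHEX), 2 with knockdown of the coactivator genes *YAP1* and *WWTR1*, the latter encoding TAZ (siYAP/TAZ), and 1 with knockdown of *TEAD1*, *TEAD2*, *TEAD3* and *TEAD4*, the DNA-binding partners of YAP and TAZ (siTEAD1/2/3/4). All groups were the same cell line after siRNA transfection. The methods list a separate siRNA for each siHHEX library number and a separate pair for each siYAP/TAZ number. The labels do not tie a library to an siRNA, so the replicates of a knockdown may not have shared one. Nothing in the labels says that the 2 siNC libraries came from separate cultures, so the spread between them may be technical. Every knockdown was compared with the same 2 siNC libraries.

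Ribosomal proteins assemble with ribosomal RNA in the nucleolus into a large subunit, which forms peptide bonds, and a small subunit, which reads the mRNA. Each protein is needed in about the same number of copies, and surplus copies are degraded. Most ribosomal protein mRNAs begin with a C followed by a run of pyrimidines, the 5′ terminal oligopyrimidine (TOP) motif, through which LARP1 and the mTOR pathway control their translation. Proliferating epithelial cancer cells devote a large part of their mRNA to these genes.

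The start sites of members at both ends of the siHHEX response are shown because the TOP motif is the best known sequence feature of these genes. RefSeq promoter sequences (GRCh38.p14) covered 62 of the 77 members. A C at an annotated start followed by at least 4 bases that were each C or T, read on the gene's strand, was found in 46 of the 62 (74.2%). This compared with 1404 of all 27305 genes of the table (5.14%) and 633 of 8657 other tested genes (7.31%). A gene counted if any of its annotated starts had the motif. For genes with several starts, one with the motif was printed where there was one. The 30 bases below run 5′ to 3′, with 10 bases before the start, and capitals mark the C and the pyrimidines that follow it from the start. The first 4 belong to the highest siHHEX changes and the last 4 to the lowest, among members that have an entry and can be printed here.
RPS10: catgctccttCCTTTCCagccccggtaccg
RPS19: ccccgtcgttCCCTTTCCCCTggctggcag
RPL28: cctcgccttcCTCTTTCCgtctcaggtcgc
RPS29: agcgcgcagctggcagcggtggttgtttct
RPS7: cgccctcctcCTCgcgctgtttccgcctct
RPL14: ggtcttcttcCTTCTCgcctaacgccgcca
RPS4X: ctccagccccaatttctacgcgcaccggaa
RPL21: ccgcctctttCCTTTCggccggaaccgcca

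These windows lie at chr6:34426050-34426079 (minus strand), chr19:41860245-41860274 (plus), chr19:55385922-55385951 (plus), chr14:49598691-49598720 (minus), chr2:3575250-3575279 (plus), chr3:40457329-40457358 (plus), chrX:72277229-72277258 (minus) and chr13:27251548-27251577 (plus), in the order printed. Each spans the promoter and the first bases of the 5′ UTR. *RPS19* carried the longest run of the 8, with 11 pyrimidines, and the printed starts of *RPS29* and *RPS4X* did not begin with a C. A start with the motif was present in 22 of the 29 covered members that rose in siHHEX (75.9%), in 4 of the 6 that fell (66.7%) and in 20 of the 27 that did neither (74.1%). These shares were not tested against each other. An annotated start is a description of the gene model and was not measured in these cells.

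The knockdown labels were checked first. *HHEX* was at 8.60 and 9.06 FPKM in siNC and at 3.25, 3.54 and 1.85 in the 3 siHHEX libraries, without overlap (log2 change −1.37, adjusted p = 0.0054, limma). *WWTR1* was at 6.80 and 6.72 FPKM in siNC and at 2.64 and 2.58 in siYAP/TAZ (log2 change −1.10, adjusted p = 0.0156, limma). *YAP1* went from 20.2 and 19.7 FPKM to 6.90 and 8.39, with no overlap, although its change of −1.28 did not pass (adjusted p = 0.0681, limma). In siTEAD1/2/3/4, *TEAD1* was at 9.02 and *TEAD4* at 5.56 FPKM, against siNC values of 18.3 and 19.0 and of 20.3 and 21.3. *TEAD2* was at 2.73 against 4.10 and 3.47, while *TEAD3* was at 9.08 against 7.36 and 6.99 and so was not lower. *YAP1* and *TEAD1* also fell in siHHEX and *TEAD2* rose, to 6.495, 8.02 and 7.18 FPKM (log2 change 0.78, adjusted p = 0.00709, limma), and *YAP1* differed widely among its libraries (5.77, 17.4 and 6.93 FPKM). In siYAP/TAZ, *TEAD4* fell to 12.5 and 13.6 FPKM (log2 change −0.63, adjusted p = 0.025, limma), and *HHEX* was at 4.80 and 7.12, below both controls, without passing (log2 change −0.52, adjusted p = 0.196). Of 7 epithelial markers, *KRT8*, *KRT18*, *KRT19* and *EPCAM* were abundant in siNC, *CDH1* and *CDX2* low, and the villus gene *VIL1* near 0. *KRT18* and *KRT8* fell in siYAP/TAZ (log2 change −1.22 and −0.88, adjusted p = 0.000861 and 0.00227, limma). In siHHEX *EPCAM* and *KRT18* fell (−0.38 and −0.29, adjusted p = 0.0289 and 0.0348) and *CDX2* rose (0.42, adjusted p = 0.042). The siHHEX calls of *CDX2* and *TEAD2* were lost once trends on GC content and transcript length were removed. Of 5 markers of fibroblasts, leukocytes and endothelium, only *COL1A1* passed the filter, with at most 2.04 FPKM in any library.

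In siNC the members filled most of the top of the list. Their FPKM ran from 11.8 to 3666, with a median of 868, against a median of 7.34 over all tested genes, and 36 of the 77 were over 1000. Members made up 15 of the 20 highest rows, 36 of the highest 50 and 57 of the highest 100. The 5 highest were *RPLP1* (3602 and 3731 FPKM), *RPS2* (3459 and 3854), *RPL37A* (3352 and 2978), *RPS18* (3175 and 3069) and *RPS12* (2883 and 2776). *RPLP1* encodes an acidic protein of the stalk that recruits elongation factors, and RPS2 sits at the mRNA entry of the small subunit. The spreads of *RPLP1* and *RPS2* overlapped, so that the first place was not resolved. The lowest were *RPL36A* (11.3 and 12.2 FPKM), *RPL28* (29.6 and 35.2) and *RPS29* (44.5 and 46.01). FPKM divides by a gene length that depends on the gene model, so levels of different members are comparable only as far as those lengths are.

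Ribosomal protein sequences recur in processed pseudogenes. The GENCODE release 44 annotation holds 1588 pseudogenes named after the members, at least 1 for each of the 77 and 133 for *RPL21*. How fragments that match a gene and its pseudogenes were assigned is not given in the sources used here, and *RPL17*, *RPL36A* and *RPS10* also overlap annotated readthrough genes. Levels of single members are therefore uncertain in a way that replicate spread does not show. In siNC, 75 of the 77 had a coefficient of variation under 10%, and the difference between the 2 siNC libraries ran from −0.20 (*RPL10A*) to 0.24 (*RPL28*) on the log2(FPKM + 1) scale, with an SD over members of 0.087.

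The share of the summed FPKM held by the 77 genes was 24.4% and 24.2% in siNC, and 27.3%, 25.2% and 25.9% in siHHEX. The mean rose from 24.3% ± 0.187 (SD, n = 2) to 26.2% ± 1.03 (SD, n = 3), and all siHHEX libraries lay above both controls. In siYAP/TAZ the share was 23.7% and 25.4%, a pair that enclosed the control values, and in the single siTEAD1/2/3/4 library it was 24.8%. No test was made on this sum over chosen genes, and in bulk RNA fewer cells of a kind and less RNA per cell cannot be told apart. Total FPKM was 348610 and 345773 in siNC and higher in siHHEX, at 374103, 365242 and 383423, so the members' own sum grew by more than their share, from 84431 ± 1136 FPKM (SD, n = 2) to 97893 ± 5105 (SD, n = 3). The other genes together went from 262760 ± 870 to 276363 ± 6604 FPKM.

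**Figure D1:**
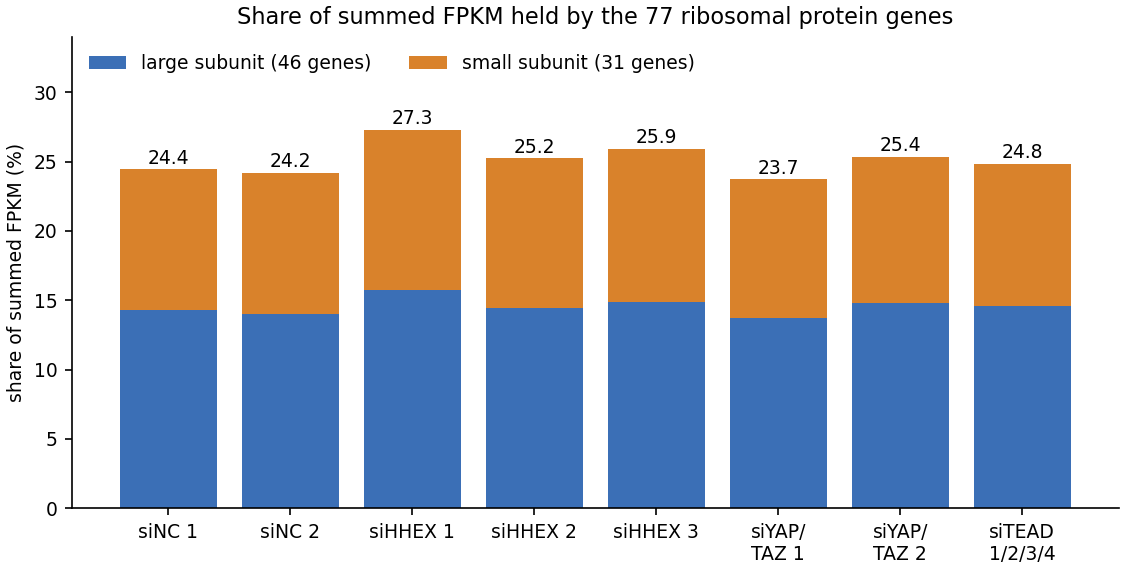
Stacked bars give, for each library, the percent of its summed FPKM held by large-subunit genes (blue) and small-subunit genes (orange), with the total above each bar. The siHHEX bars reach 27.3%, 25.2% and 25.9%, above both siNC bars at 24.4% and 24.2%, while the siYAP/TAZ bars at 23.7% and 25.4% lie on either side of them.

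Large-subunit mRNAs outweighed small-subunit mRNAs in every library. The ratio of their summed FPKM was 1.41 and 1.37 in siNC, 1.36, 1.33 and 1.35 in siHHEX, 1.37 and 1.40 in siYAP/TAZ and 1.43 in siTEAD1/2/3/4. All siHHEX ratios lay below both siNC ratios, with means of 1.35 ± 0.0130 (SD, n = 3) and 1.39 ± 0.0242 (SD, n = 2), a gap about as large as that between the controls. In siHHEX the large subunit took 15.01% ± 0.654 of the summed FPKM and the small subunit 11.1% ± 0.3797, compared with 14.1% ± 0.212 and 10.2% ± 0.0250 in siNC.

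Most ribosomal protein genes that changed in siHHEX rose. Of the 77 members, 35 rose (45.5%) and 7 fell (9.09%) at an adjusted p under 0.05, where 16% of all 10677 tested genes rose and 16.9% fell. The counts were 15 and 3 once trends on GC content and transcript length had been removed (GC correction, 3.59% and 3.2% of tested genes), and 19 and 2 with no filter on low values (6.37% and 5.35% of 16276 genes). No member passed the study's own criterion of a fold change over 2 with an unadjusted p under 0.05, since no change reached 2-fold, although 49 had an unadjusted p under 0.05. The median member change was 0.30, 0.16 and 0.27 in the 3 libraries, on the log2(FPKM + 1) scale, against −0.02, 0.02 and −0.01 over all tested genes, and over the group it was −0.04 after GC correction, which reversed it. All siHHEX libraries lay above both controls for 44 members (57.1%, against 33.1% of tested genes) and below both for 15 (19.5%, against 33.8%). Rescaling each library to the same total FPKM, which shifted the median gene of siHHEX by −0.11, gave 26 members higher and 13 lower (11.3% and 22.3% of tested genes).

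The counts rested on having both controls. Without siNC 1, no member passed in either direction, and without siNC 2, 1 rose and 0 fell, in fits that called 10 and 15 of the 10677 tested genes higher and 9 and 12 lower. The count of 7 fallers, where 16.9% of tested genes fell, was 4 without siHHEX 1 (9.08% of tested genes) and 3 without siHHEX 3 (11.5%). Without siHHEX 2 it was 9 (24.9%). Fewer than 7 members fell without either siYAP/TAZ library, which enter the fit through the shared spread. The share of tested genes that fell was only slightly smaller there.

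**Figure D2:**
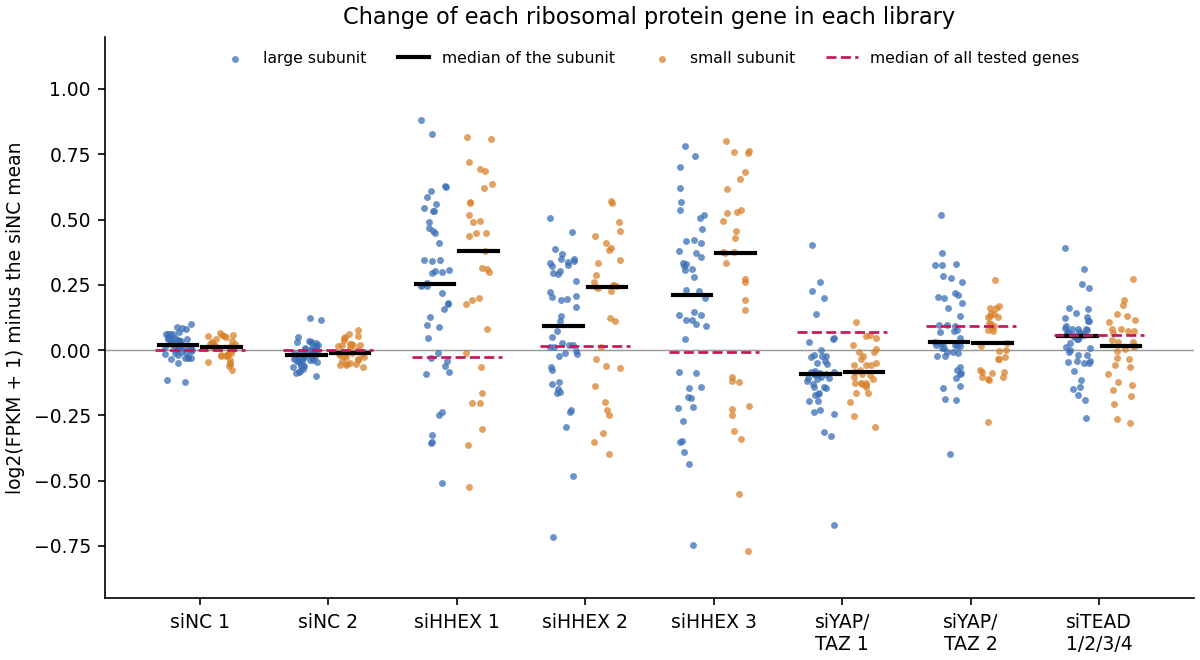
Each point is 1 ribosomal protein gene in 1 library, as log2(FPKM + 1) minus the siNC mean, for the large subunit (blue) and the small subunit (orange). Black lines are the medians of each subunit and dashed lines the median of all tested genes. Points spread from −0.77 to 0.88 in siHHEX and from −0.12 to 0.12 in siNC.

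Both subunits moved in both directions. Of the 46 large-subunit genes, 17 rose and 3 fell, with a median log2 change of 0.20, and of the 31 small-subunit genes, 18 rose and 4 fell, with a median of 0.35. Over all tested genes 16% rose and 16.9% fell. In every siHHEX library the small-subunit median was the higher, at 0.38, 0.24 and 0.37 against 0.25, 0.09 and 0.21. After GC correction 10 rose and 3 fell in the large subunit, with a median of −0.08, and 5 rose and 0 fell in the small subunit, with a median of −0.03, where 3.59% and 3.2% of tested genes did.

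*RPS10*, whose protein lies at the mRNA entry and is ubiquitinated on collided ribosomes, was at 618 and 571 FPKM in siNC and at 961, 883 and 1036 in siHHEX. Every siHHEX library exceeded both controls by a wide margin (log2 change 0.69 ± 0.09 SE, adjusted p = 0.00387, limma). *RPS19*, the gene most often mutated in Diamond-Blackfan anemia, was at 190.3 and 190.2 FPKM in siNC and at 336, 268 and 322 in siHHEX (log2 change 0.69 ± 0.11 SE, adjusted p = 0.00638, limma). *RPS2* was at 3459 and 3854 FPKM in siNC and at 5680, 5399 and 5756 in siHHEX (log2 change 0.62 ± 0.07 SE, adjusted p = 0.00365, limma). By its group mean *RPS2* was the highest row of the files in siHHEX. *RPSA*, which encodes the ribosomal form of the laminin receptor, went from 1416 and 1454 to 2128, 1906 and 2199 FPKM (log2 change 0.53, adjusted p = 0.00533, limma). *RPS29*, one of the 3 lowest members, and *RPS9* rose by 0.67 and 0.65 on the log2 scale. After GC correction *RPS19* (0.41, adjusted p = 0.0406, limma) and *RPSA* (0.38, adjusted p = 0.0255) still passed, while *RPS10* was at 0.25 (adjusted p = 0.0877), *RPS2* at 0.13 (adjusted p = 0.309), *RPS29* at 0.40 (adjusted p = 0.0639) and *RPS9* at 0.10 (adjusted p = 0.431), and none of these passed.

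Among large-subunit genes, *RPL28* had the largest rise, from 29.6 and 35.2 FPKM to 58.1, 46.3 and 53.1 (log2 change 0.68 ± 0.14 SE, adjusted p = 0.00973, limma). It was also the member on which the controls differed most. All 3 stalk genes rose, and after GC correction 1 of them was higher and 1 lower. *RPLP0*, the base of the stalk, was at 1637 and 1720 FPKM in siNC and at 2427, 2135 and 2403 in siHHEX (log2 change 0.47), and did not pass after GC correction (0.17, adjusted p = 0.138, limma). *RPLP1* was at 5349, 4584 and 4550 FPKM in siHHEX (log2 change 0.39, adjusted p = 0.0121, limma), all above its siNC values of 3602 and 3731. *RPLP2* rose least, from 1667 and 1584 to 1942, 1819 and 2040 FPKM (log2 change 0.25, adjusted p = 0.0385, limma), and turned to −0.34 after GC correction (adjusted p = 0.039). *RPL37A* rose by 0.29, and was at 0.55 after GC correction (adjusted p = 0.0187) but at 0.18 after rescaling to a common total, where it did not pass (adjusted p = 0.0733). *RPS18* (0.19) and *RPS12* (−0.02), the other 2 of the 5 most abundant members, did not pass, and after GC correction they were at −0.21 and −0.32, which did not pass either.

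The 7 fallers were *RPL7*, *RPL14*, *RPL21*, *RPS7*, *RPS4X*, *RPS23* and *RPS6*. *RPL7* was at 1212 and 1114 FPKM in siNC and at 817, 706 and 693 in siHHEX, the largest fall of the 77 (log2 change −0.66 ± 0.10 SE, adjusted p = 0.00535, limma). *RPS7*, whose protein is known to bind MDM2, was at 1484 and 1355 FPKM in siNC and at 1102, 1235 and 832 in siHHEX (log2 change −0.44 ± 0.15 SE, adjusted p = 0.0476, limma). All siHHEX libraries lay below both controls, with siHHEX 3 far below the other two, and without siHHEX 3 the change was −0.28 and did not pass. *RPL14* went from 654 and 616 to 507, 454 and 469 FPKM (log2 change −0.41 ± 0.09 SE, adjusted p = 0.0134, limma). *RPS4X*, an X-linked small-subunit gene, went from 1280 and 1223 to 870, 1052 and 988 (log2 change −0.37, adjusted p = 0.0289, limma). *RPL21* fell by 0.35 and *RPS23*, whose protein lies at the decoding center, by 0.29 on the log2 scale. *RPS6*, the substrate of the S6 kinases, was at 1380 and 1273 FPKM in siNC and at 1151, 1130 and 1134 in siHHEX, a small change close to the threshold (log2 change −0.22, adjusted p = 0.0499, limma). After GC correction *RPL7* (−0.43) and *RPL21* (−0.36) still passed, whereas *RPS7* (−0.63, adjusted p = 0.0517) and *RPS4X* (−0.36, adjusted p = 0.0544) did not. *RPL14* was then at −0.13 (adjusted p = 0.468), *RPS6* at −0.04 (adjusted p = 0.768) and *RPS23* at −0.03 (adjusted p = 0.851). For *RPL14* the correction used a transcript of 7136 bases with a coding sequence of 645. Corrected values of single members depend on such gene models.

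*RPL5* and *RPL11* encode the proteins that join the 5S ribosomal RNA and can inhibit MDM2 outside the ribosome. *RPL5* was at 985 and 942 FPKM in siNC and at 811, 821 and 827 in siHHEX, below both controls each time, but did not pass (log2 change −0.23, adjusted p = 0.0734, limma). *RPL11* was at 670 and 629 FPKM in siNC and at 609, 648 and 587 in siHHEX, with overlap (log2 change −0.08, adjusted p = 0.491, limma). *RPL22* and *RPS27A*, which encodes a fusion with ubiquitin, had changes of −0.11 and −0.21 that did not pass, and that of *RPL22* was 0.02 without siHHEX 3 and 0.16 after GC correction. After rescaling to a common total, *RPL5* (−0.34, adjusted p = 0.0181, limma) and *RPS27A* (−0.32, adjusted p = 0.0329) passed, while *RPL11* (−0.19) and *RPL22* (−0.21) did not.

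**Figure D3:**
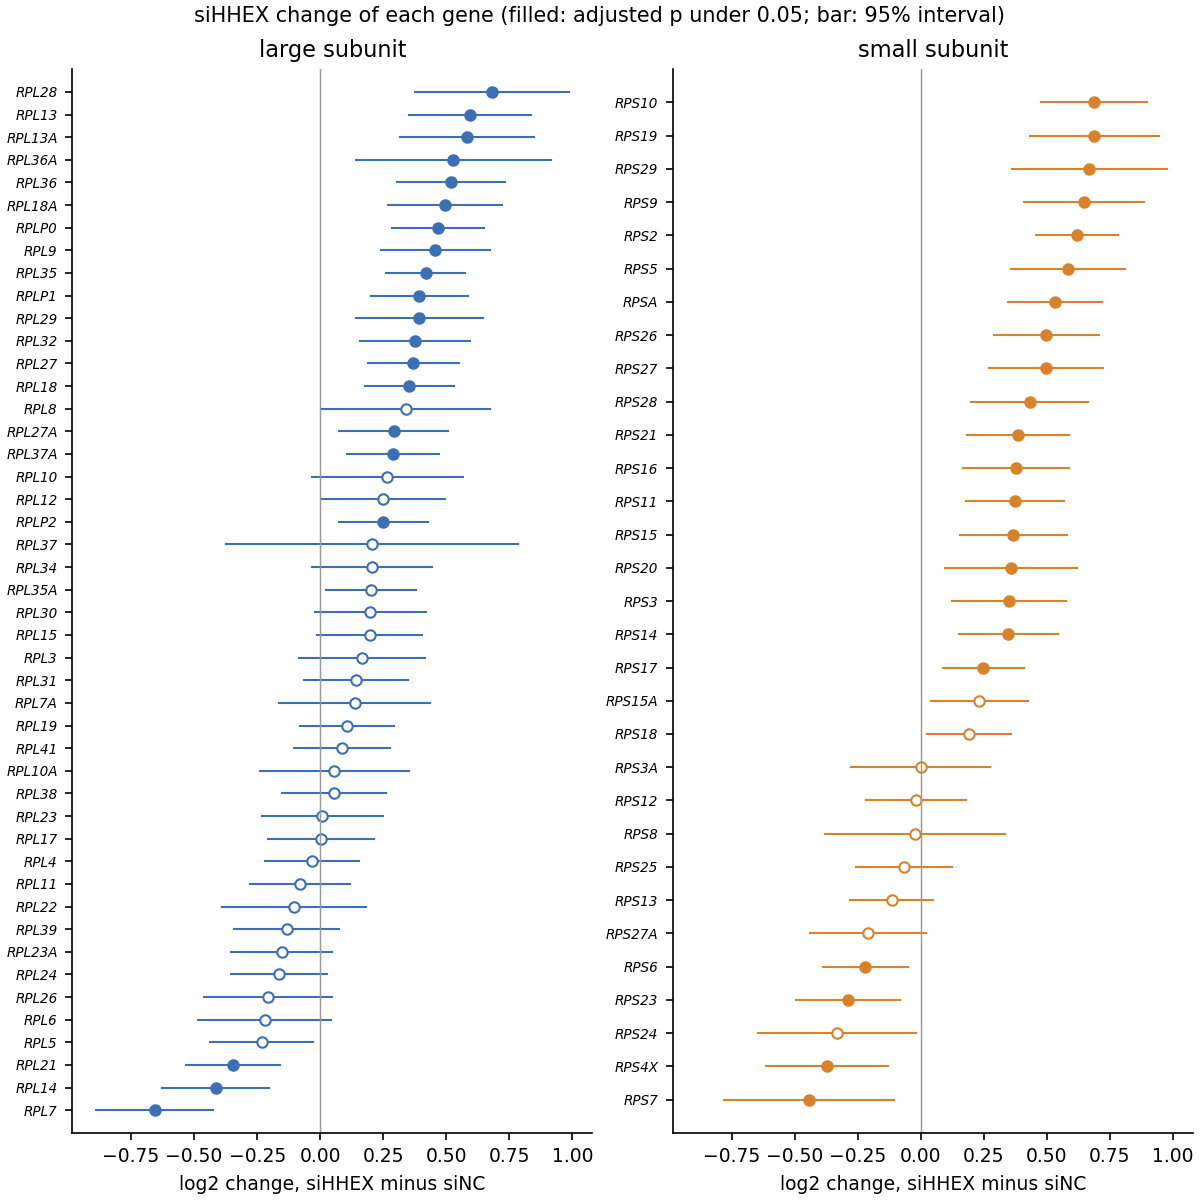
Horizontal axes give the siHHEX log2 change of each gene from siNC, with its 95% confidence interval from limma, for the large subunit (left) and the small subunit (right), in order of the change. Filled circles mark an adjusted p under 0.05. *RPS10* and *RPL28* top the panels at 0.69 and 0.68, and *RPL7* and *RPS7* close them at −0.66 and −0.44.

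In siYAP/TAZ few members passed. None rose and 1 of 77 fell (1.299%), where 6.15% of tested genes rose and 2.13% fell, and 8 members had an unadjusted p under 0.05. The GC correction also removed each library's mean deviation and shifted the median gene of siYAP/TAZ by −0.093. After it 0 members were higher and 6 lower (5.31% and 6.14% of tested genes). The one that passed was *RPL35*, a protein at the exit tunnel of the large subunit, at 2259 and 2188 FPKM in siNC and at 1788 and 1686 in siYAP/TAZ, without overlap (log2 change −0.36, adjusted p = 0.0272, limma). Its call was lost without siNC 1, without siNC 2 and without siYAP/TAZ 2. Without siHHEX 2 the fit called 1 member higher and 2 lower, where 8.88% of tested genes were higher and 3.46% lower. The next lowest were *RPS15* (792 and 835 against 663 and 672 FPKM, log2 change −0.28) and *RPL24* (1304 and 1195 against 1053 and 1095, log2 change −0.22), and neither passed, although both did after GC correction (−0.46, adjusted p = 0.0139, and −0.35, adjusted p = 0.0467, limma). The highest changes were those of *RPL36A* (11.3 and 12.2 against 15.8 and 17.3 FPKM, log2 change 0.46), *RPL28* (0.30, or 0.18 without siNC 1) and *RPL13A* (0.30), and none of these passed. Both siYAP/TAZ libraries lay above both controls for 10 members (13.0%, against 42.9% of tested genes) and below both for 22 (28.6%, against 24.8%).

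The 2 siYAP/TAZ libraries differed from each other. The median member change was −0.09 in siYAP/TAZ 1 and 0.03 in siYAP/TAZ 2, on the log2 scale, against 0.07 and 0.09 over all tested genes. *RPL37* had the widest gap, at 257 FPKM in siYAP/TAZ 1 and 496 in siYAP/TAZ 2 beside 378 and 444 in siNC.

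The single siTEAD1/2/3/4 library has no replicate check. Its median member change was 0.04, close to the 0.06 of all tested genes. Only *RPL28* exceeded the siNC mean by a ratio of more than 5 to 4 (42.6 FPKM, log2 change 0.39), 1 of 77 (1.299%) where 17.8% of tested genes did, and no member was lower by that ratio, where 8.95% of tested genes were. Without siNC 1 no member was past that ratio upward, and without siNC 2, 1 was past it downward. *RPL13A* (1548 FPKM against 1248 in both controls, log2 change 0.31) and *RPS9* (725 against 580 and 619, log2 change 0.27) came next. The lowest were *RPS18* (2573 FPKM against 3175 and 3069, log2 change −0.28), *RPS4X* (−0.26) and *RPL7* (−0.26).

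The difference between siHHEX and siYAP/TAZ was tested directly. Of the 77 members, 37 were higher in siHHEX (48.1%) and 6 were lower (7.79%), where 13.5% of tested genes were higher and 25.9% lower. *RPS10* (557.8 and 548 FPKM in siYAP/TAZ), *RPL35* and *RPS2* (3343 and 3440 FPKM in siYAP/TAZ) differed most, by 0.79, 0.77 and 0.73 on the log2 scale, with adjusted p of 0.0033, 0.00237 and 0.00263 (limma). For each of the 3, every siHHEX library lay above both siYAP/TAZ libraries. After GC correction these differences were 0.49 (adjusted p = 0.0151, limma), 0.34 (adjusted p = 0.0789) and 0.34 (adjusted p = 0.0301), so that *RPL35* no longer passed. *RPL7* was lower by 0.58, *RPS4X* by 0.42 and *RPL14* by 0.35, and *RPL11*, *RPL23A* and *RPS6* made up the 6; after GC correction *RPL7* was at −0.28 (adjusted p = 0.099), *RPS4X* at −0.34 (adjusted p = 0.0561) and *RPL14* at 0.07 (adjusted p = 0.719), so that none of these 3 passed. The 37 became 24 without siHHEX 1, where 10.9% of tested genes were higher. Both counts were also smaller when either siYAP/TAZ library was left out, which leaves a single library in that group. Fewer of all tested genes passed there too, in both directions. The split of 37 higher to 6 lower became 23 to 19 after rescaling each library to the same total FPKM (8.03% and 36.6% of tested genes), and 20 to 2 after GC correction (5.55% and 3.38%). Against siNC, 15 members were higher in siHHEX after that correction (3.59% of tested genes). Of these, 12 were among the 35 risers and 3, *RPL15*, *RPL31* and *RPL35A*, were not. The 3 members then lower in siHHEX than in siNC (3.2% of tested genes) were *RPL7* and *RPL21*, both among the 7 fallers, and *RPLP2*, one of the risers.

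**Figure D4:**
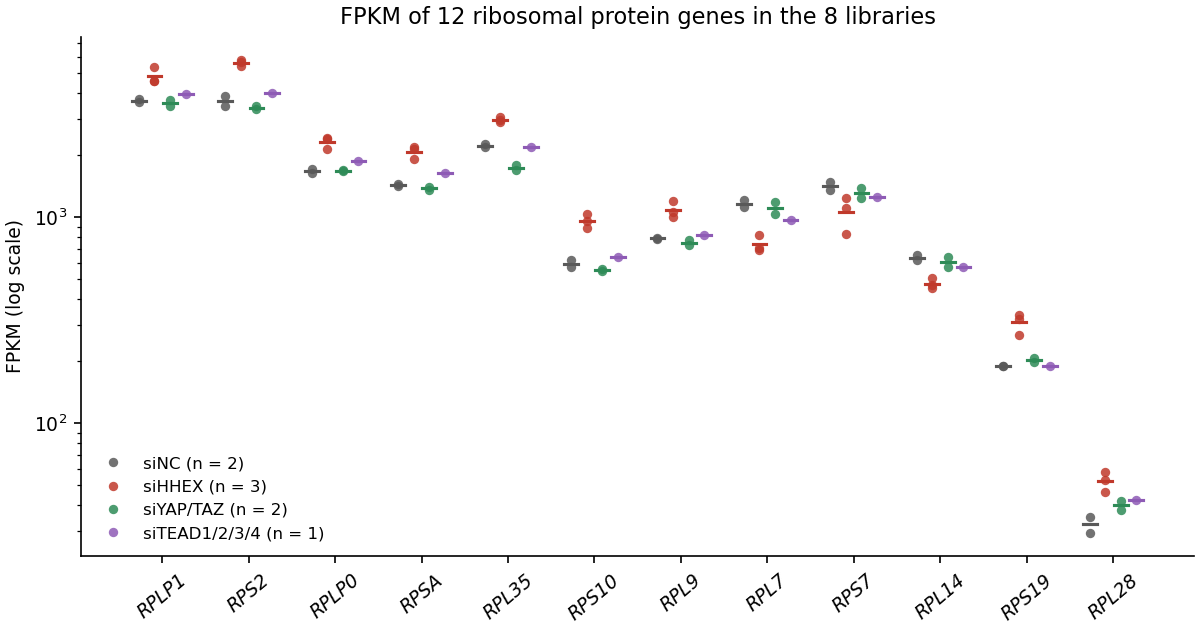
The vertical axis gives FPKM on a log scale for 12 members in siNC (gray), siHHEX (red), siYAP/TAZ (green) and siTEAD1/2/3/4 (purple). Points are libraries and short lines are means. Red points stand above gray for *RPS2*, *RPS10*, *RPL9* and *RPL28*, and below gray for *RPL7*, *RPS7* and *RPL14*.

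Members that rose and members that fell differed in the base composition of their coding sequence. Coding GC content ran from 42.5% to 63.0% over the 77 members, with a median of 51.6%. The members that rose in siHHEX had a median of 55.0%, those that fell 47.3% and those that did neither 47.9%. Across the 77 genes, Spearman's rho of the change with coding GC content was 0.65, 0.61 and 0.78 in the siHHEX libraries, 0.15 and −0.18 in siYAP/TAZ and 0.54 in siTEAD1/2/3/4. These values are descriptions, since all changes are taken from the same siNC mean and the genes of one library come from the same preparation. The siNC 2 minus siNC 1 difference had a rho of 0.49 as well, over changes with an SD of only 0.087. Over 10609 tested genes, rho was 0.61, 0.55 and 0.69 in siHHEX, 0.05 and −0.07 in siYAP/TAZ and 0.26 in siTEAD1/2/3/4, so the relation was not particular to ribosomal protein genes.

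Of the 26 members with the highest coding GC content (54.2% to 63.0%), 21 rose in siHHEX and 0 fell, with a median log2 change of 0.41. Other tested genes in that range of GC content rose in 27.3% and fell in 4.04% of cases, with a median of 0.25. The middle 25 members had 11 risers and 2 fallers (median 0.21), where other genes rose in 8.03% and fell in 11.7% of cases (median −0.03). Of the 26 lowest (42.5% to 47.9%), 3 rose and 5 fell (median −0.09), where other genes rose in 1.23% and fell in 33.6% of cases (median −0.32). These ranges were not matched on length, and the median coding length was 456 bases in members and 1365 in tested genes. With both trends removed, the members' median of −0.04 lay below the 0.00063 of all tested genes. *RPL9*, *RPS20* and *RPL36A* were the 3 risers of the lowest 26 and were singled out after their values were seen. *RPL9*, with a coding GC content of 43.6%, was at 785 and 793 FPKM in siNC and at 1204, 999 and 1055 in siHHEX (log2 change 0.46, adjusted p = 0.0111, limma), and remained higher after GC correction (0.52, adjusted p = 0.0229). *RPS20* was at 781 and 743 FPKM in siNC and at 1073, 904 and 961 in siHHEX (log2 change 0.36, adjusted p = 0.0421, limma), and was at 0.16 after that correction, where it did not pass. Whether base composition has a part in the siHHEX changes was not tested.

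**Figure D5:**
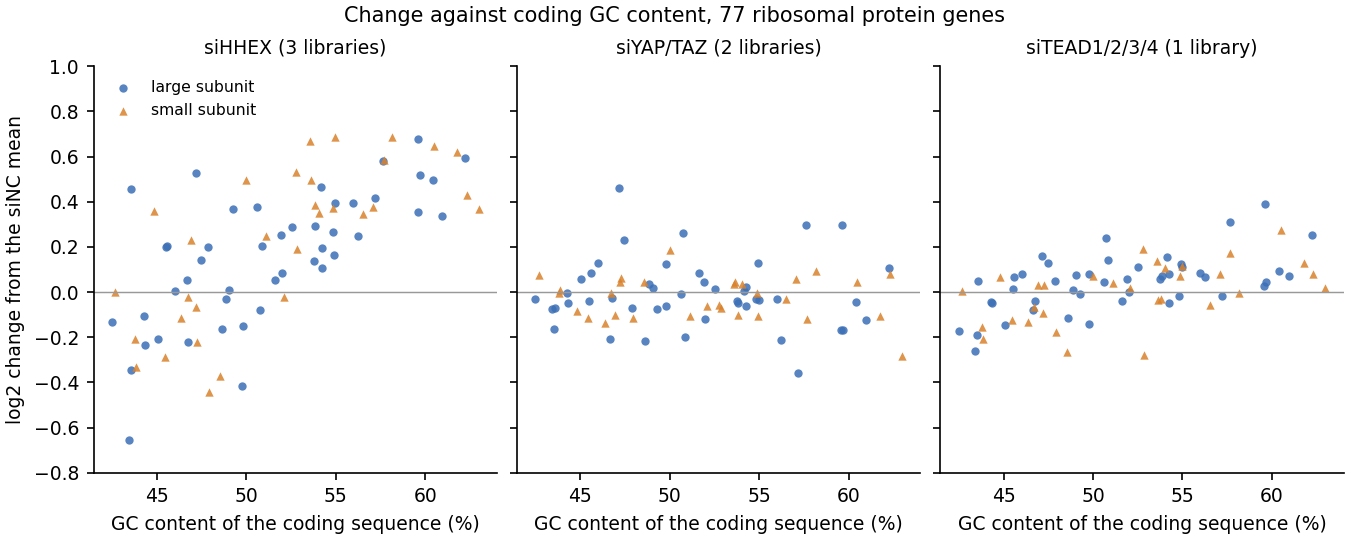
Each point is a ribosomal protein gene of the large (blue circle) or small (orange triangle) subunit, with the GC content of its coding sequence on the horizontal axis and its log2 change from siNC on the vertical axis, in siHHEX (left), siYAP/TAZ (middle) and siTEAD1/2/3/4 (right). In siHHEX the 26 genes of highest GC content have a median change of 0.41 and the 26 lowest −0.09, while in siYAP/TAZ both medians are −0.03.

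Other genes of the ribosome and of translation were set beside the members. Of 10 ribosomal genes outside the name pattern, 7 were tested, and in siHHEX *FAU* (835 and 895 FPKM in siNC, 1150, 1125 and 1197 in siHHEX, log2 change 0.42), which encodes a ribosomal protein fused to a ubiquitin-like one, rose while the paralog *RPL36AL* fell by 0.37. None of the 7 passed in siHHEX after GC correction. Of the 7, *RPS27L*, a p53-induced paralog, was the one that rose in siYAP/TAZ (79.0 and 72.2 against 110 and 109 FPKM, log2 change 0.53, adjusted p = 0.0482, limma), where 6.15% of tested genes rose. That call was lost after GC correction, where 0 of the 7 were higher and 1 was lower (5.31% and 6.14% of tested genes).

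Mitochondrial ribosomal protein genes, which serve a separate ribosome, rose in 26 and fell in 4 of 78 cases in siHHEX, with a median log2 change of 0.21 (33.3% and 5.13%, against 16% and 16.9% of all tested genes). After GC correction 7 were higher and 0 lower, with a median of 0.03, where 3.59% of tested genes were higher and 3.2% lower. Other mRNAs known for a TOP motif, such as those of elongation factors, moved both ways. Of 16 such genes, *EEF2* and *EIF3F* rose in siHHEX (12.5%) and *EEF1A1*, *EIF3E*, *HNRNPA1* and *NPM1* fell (25%), against 16% and 16.9% of tested genes. The median of the 16 was −0.19. After GC correction 1 was higher and 2 lower, where 3.59% and 3.2% of tested genes were. *EEF1A1*, the elongation factor that delivers aminoacyl-tRNA, was at 2030 and 1975 FPKM in siNC and at 1532, 1350 and 1638 in siHHEX (log2 change −0.41, adjusted p = 0.0178, limma). Their share of the summed FPKM was 2.50% and 2.48% in siNC and 2.15%, 2.09% and 2.14% in siHHEX, lower in all 3 libraries, while the share of the ribosomal protein genes was higher.

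Among 14 regulators of ribosomal protein transcription and translation, 2 rose (14.3%) and 4 fell (28.6%) in siHHEX, against 16% and 16.9% of all tested genes, and none passed after GC correction. *RPS6KB1*, the kinase gene of S6, was at 13.8 and 13.5 FPKM in siNC and at 6.12, 5.09 and 8.24 in siHHEX (log2 change −0.99, adjusted p = 0.00717, limma), whereas its paralog *RPS6KB2* went from 17.04 and 17.4 to 25.2, 21.7 and 34.5 (log2 change 0.60, adjusted p = 0.033, limma). *EIF4EBP1*, a translational repressor, was the other riser (0.47), and *GABPA*, *TBPL1* and *YY1*, transcription factors, were the other fallers. None of the 14 passed in siYAP/TAZ, where 3 were lower after GC correction, against 6.14% of tested genes. Of 5 chaperones dedicated to ribosomal proteins, *AAMP* rose in siHHEX by 0.46 (20%) and *LTV1* fell by 0.56 (20%), against 16% and 16.9% of tested genes. *GRWD1*, the chaperone of RPL3, fell in siYAP/TAZ by 0.70 on the log2 scale (20%), against 2.13% of tested genes. None of the 5 passed in siHHEX after GC correction.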

How the data were processed

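RNA of 8 HCT-116 libraries was analysed, with groups and replicate numbers taken from the labels. The authors deposited FPKM per gene, fragments scaled by gene length and library total. The submitters' processing notes name Trimmomatic 0.36, HISAT2 2.0.5, Cufflinks 2.2.1 and HTSeq 0.9.1, without roles; the RNA-seq genome build and the handling of strand and multiply mapped reads are not given in the sources used here. The paper names DESeq, a count test that FPKM do not allow. Read depth is unknown; from the spacing of low values, depth relative to siNC 1 was 0.947 to 1.07.

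The tests used limma 3.58.1 (R 4.3.3) on log2(FPKM + 1), with a variance trend, in 1 fit of all 8 libraries, over the 10677 genes that reached 1 FPKM in 2 libraries or more. Fold changes on this scale understate those of low genes. p-values were adjusted by Benjamini-Hochberg over all tested genes, with 0.05 as the threshold. The single siTEAD1/2/3/4 library got no p, and changes past a ratio of 5 to 4 were counted. Coding GC content, transcript GC content and length came from the canonical transcript of each gene in GENCODE release 44. These gene models may differ from those behind the deposited FPKM. The correction removed natural splines (4 degrees of freedom) on transcript GC content and log length, for the 10627 tested genes with both. The fit of the splines had an intercept, so each library's mean deviation was removed as well. The fit was tested on simulated data. Python 3.11.15, pandas 2.3.3 and matplotlib 3.10.9 were also used.

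Members named in the text are the stalk genes and *RPSA*, the 5 highest and 3 lowest in siNC, the 3 highest and 3 lowest changes in each comparison, and *RPL5*, *RPL11*, *RPL22*, *RPS6*, *RPS19* and *RPS27A* by role; others complete a list or a count, give an example or, for *RPL9*, *RPS20* and *RPL37*, were added after their values were seen. Lists were ribosomal genes outside the pattern, mitochondrial ribosomal proteins, other TOP mRNAs, regulators, chaperones, knockdown targets and cell type markers. Members and lists were chosen with earlier results of these data known. TOP host RNAs were also listed, and 0 of them were in the files. The ChIP-seq of the study was not analysed here, and 1 gene of a list is not reported here. Alternatives were other pseudocounts, filters, scalings and designs, and leaving out each library.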

Additional observations from a re-analysis of the deposited data

How the results depend on the processing

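Values are given as higher, then lower. Of the 77 members in siHHEX (35 and 7), 19 and 2 passed with no filter on low values, 13 were lower after rescaling to a common total, 4 after median scaling and 4 in a fit of only the groups compared, 3 were lower without a variance trend, 15 and 3 passed after GC correction, and 0 and 0 by the study's criterion. Leaving out 1 library gave 0 to 42 and 0 to 9. In siYAP/TAZ (0 and 1), 0 were lower without the filter, without the trend and by the study's criterion, 2 and 2 passed in a fit of only the groups compared and 6 were lower after the GC correction, with 0 to 1 and 0 to 2 without 1 library. For siHHEX against siYAP/TAZ (37 and 6), the counts were 23 and 3 without the filter, 23 and 19 after rescaling to a common total, 24 and 14 after rescaling by the other genes, 1 lower after median scaling, 20 and 2 after the GC correction and 0 and 0 by the study's criterion, with 19 to 44 and 0 to 8 without 1 library.

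Replicate numbers did not pair the libraries (correlations of same-numbered deviations of −0.037, −0.025 and −0.043). With the replicate block the counts were 21 and 2 in siHHEX, 0 and 1 in siYAP/TAZ and 24 and 2 between them, and with the block and the GC correction 0 and 0, 0 and 3, and 3 and 0.

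The median member change in siHHEX (0.23 on the log2 scale, from the group means) was 0.12 after rescaling to a common total and −0.040 after the GC correction, and in siYAP/TAZ (−0.03) it was −0.14 after median scaling, −0.13 after the GC correction, and 0.02 and 0.03 after rescaling to a common total or by the other genes, where median scaling shifted the median gene by −0.11. In siTEAD1/2/3/4 (0.04) it was −0.018 after median scaling and 0.012 after the GC correction. Without 1 library these medians were 0.20 to 0.29, −0.09 to 0.03 and 0.03 to 0.05. The siHHEX minus siNC difference in the large over small ratio (−0.043) was −0.060 to −0.026, and in siTEAD1/2/3/4 (0.036) it was 0.018 to 0.053. Members past a ratio of 5 to 4 in siTEAD1/2/3/4 (1 and 0) were 2 higher after rescaling, 3 lower after median scaling and 0 higher after the GC correction, with 0 to 1 and 0 to 1 without 1 siNC library. After the GC correction, then with the block added, *RPLP2* in siHHEX was at −0.34 and −0.30, *RPL35* at −0.19 and −0.11 and *RPS15* at −0.28 and −0.25, against 0.25, 0.42 and 0.37 uncorrected. Between the knockdowns *RPL14* was at 0.067 and 0.035, against −0.35, and *RPS18* at −0.0048 after the correction, against 0.26. The cause of these shifts was not tested. The difference in the share of summed FPKM from siNC was 1.27 to 2.29 percentage points in siHHEX (1.83), −0.608 to 1.04 in siYAP/TAZ (0.214), which changed sign, and 0.391 to 0.655 in siTEAD1/2/3/4 (0.523), without 1 library.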
